A study of Homo sapiens with 6 samples.

Results

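The enzymes that add methyl groups to histone lysines and to arginines, and those that remove them from lysines, were followed in PANC-1 cells, a human line established from a pancreatic carcinoma. The members were chosen by name from the deposited table: symbols that start with KMT, KDM, SETD or PRMT followed by a number, together with a short list of enzymes and Polycomb subunits whose names follow no such pattern, with names on chromosome Y left out. The rule found 62 of 20036 genes. One group of 3 libraries came from PANC-1 cells given a lentivirus that knocks down SHMT2, the mitochondrial serine hydroxymethyltransferase, and the other group of 3 libraries came from PANC-1 cells given a null virus. All 6 libraries therefore came from virus-treated cells of 1 cell line, and the labels name neither the knockdown sequence nor the time of harvest. Whether the 3 libraries of a group came from separate cultures is not stated, and if they did not, the p-values below rest on technical spread alone.

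Histone methylation is written by lysine methyltransferases, most of them with a SET domain, and by the PRMT family, which methylates arginines of histones and of many RNA-binding proteins. All of these enzymes take the methyl group from S-adenosylmethionine, which cells make from methionine. Lysine marks are removed by the flavin-dependent KDM1 enzymes or by enzymes with a JmjC domain, which use iron, oxygen and alpha-ketoglutarate. A mark is named by the histone and the residue: H3K4 methylation is found at promoters and enhancers, and H3K36 and H3K79 methylation lie over transcribed genes. H3K9 and H3K27 methylation and the trimethyl form of H4K20 methylation are marks of silent chromatin.

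Levels are given in CPM, read counts divided by a library total that was scaled with TMM factors, and changes as log2 fold changes of knockdown over control. A gene was called higher or lower where the Benjamini-Hochberg adjusted p of the edgeR quasi-likelihood test, fitted on all genes, was below 0.05. Total counts were between 16748432 and 19075734 in knockdown libraries and between 15405884 and 16366452 in control libraries. SHMT2 had 6.91, 3.42 and 5.23 CPM in knockdown replicates 1, 2 and 3, against 133, 153 and 153 CPM in control replicates 1, 2 and 3, so the groups did not overlap. In bulk RNA, fewer cells that express a gene and less RNA per cell cannot be told apart. One library of each group stood apart from its fellows. Between knockdown replicates 1 and 3 the chi-square per gene was 2.46, while knockdown replicate 2 differed from them by 75 and 76.5. Between control replicates 2 and 3 it was 2.06, while control replicate 1 differed from them by 25.4 and 30.4. Mitochondrially encoded genes held 4.72%, 10.4% and 4.72% of counts in knockdown replicates 1, 2 and 3, and 5.78%, 6.72% and 6.86% in control replicates 1, 2 and 3. The part of these libraries in the results was not tested. Values without 1 or both of them are given beside the members whose call changed with them.

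Of the 62 members, 59 passed the filter on low counts. PRMT8 and KDM4F had no counts in any library, and KDM4E had 1 count, in knockdown replicate 1. Among the 59 tested members, 13 were called higher, which is 22.0%, where 26.7% of all 12292 tested genes were called higher. A further 8 members were called lower, which is 13.6%, where 25.1% of all tested genes were called lower. Together 35.6% of the members were called, against 51.8% of all tested genes. The knockdown and control libraries did not overlap in CPM for 26 members (44.1%), against 61.4% of all tested genes. Called changes of at least 2-fold were found upward in KDM7A, KMT2E, KDM6A and KMT2A, 4 of 59 where the background was 9.81%, and downward in PRMT1 alone, 1 of 59 where the background was 5.78%. All of these shares lay below those of the background, which was not tested, and nothing particular to the members is read from them. Their median log2 fold change was 0.00, as was that of all tested genes.

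**Figure D1:**
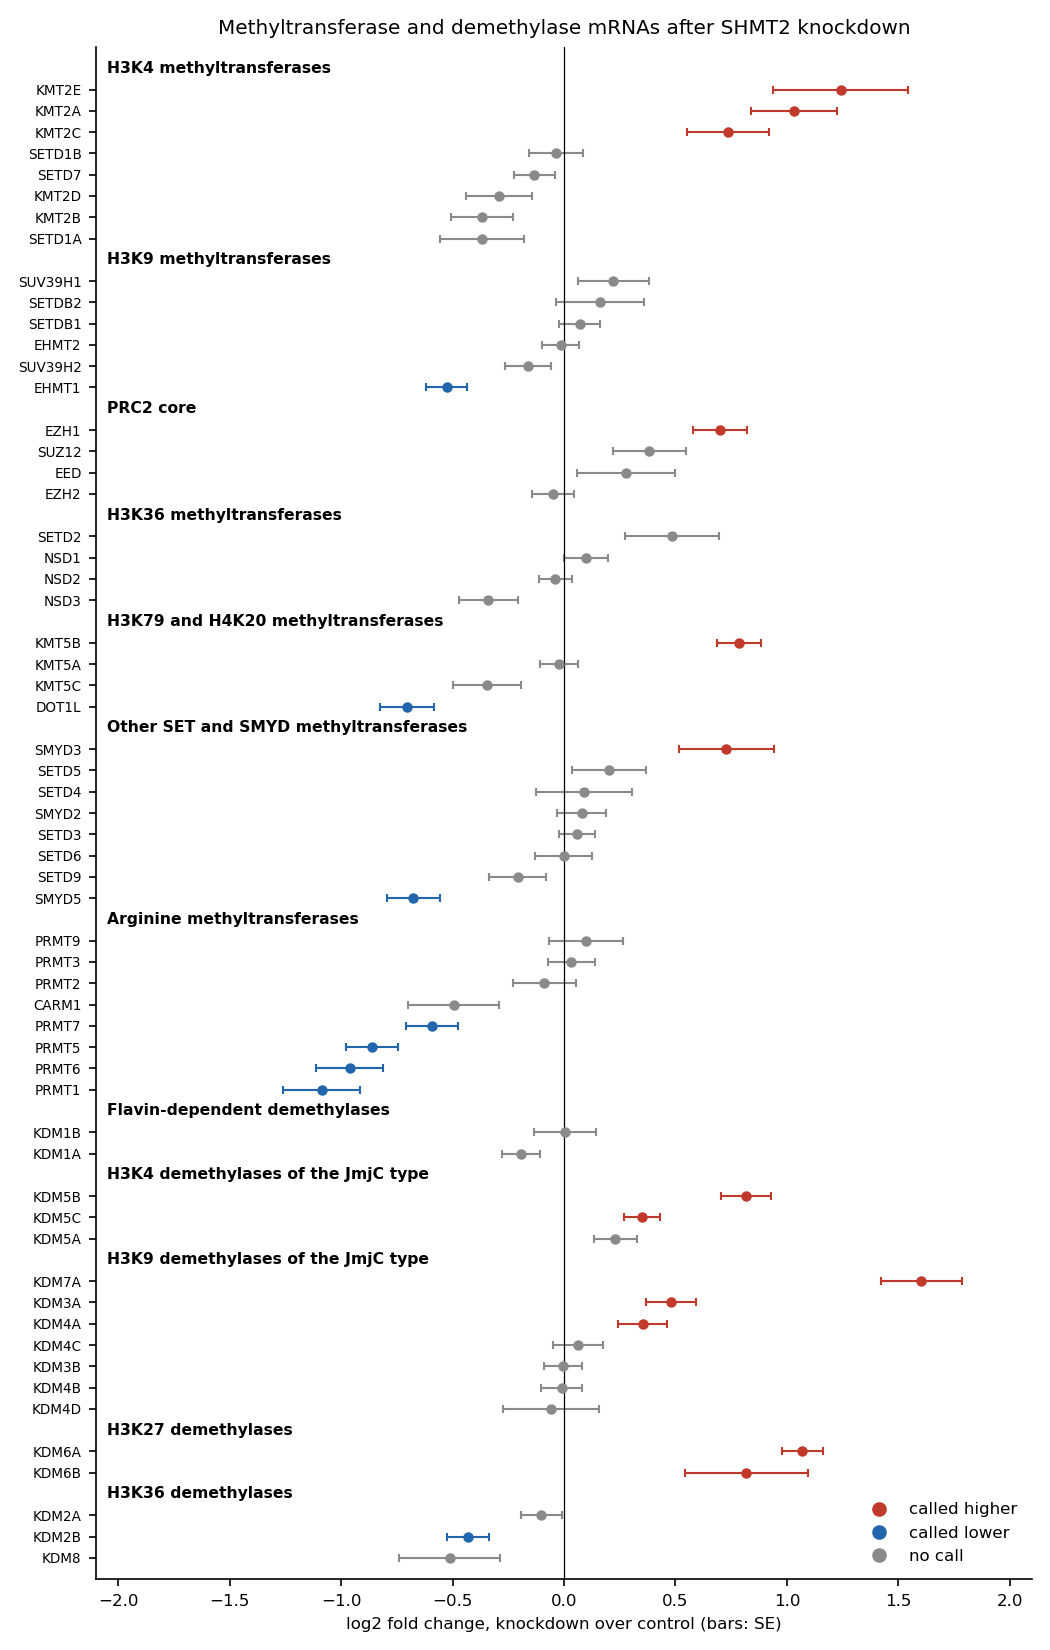
Log2 fold change of knockdown over control (horizontal axis) for the 59 tested members, grouped by role, with bars for the standard error and colours for the edgeR call. The 13 members called higher include both H3K27 demethylases and KDM7A, and 4 of the 8 called lower are arginine methyltransferases.

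The calls per role stand beside the 26.7% of all tested genes called higher and the 25.1% called lower. No arginine methyltransferase was called higher and 4 of 8 tested were called lower. Among the demethylases 7 of 17 tested were called higher and 1 lower, and among the lysine methyltransferases and Polycomb core subunits 6 of 34 were called higher and 3 lower. The members are counted together here only to describe them, and no test of one role against another was made. Their median lengths also differ, at 4608 bases for tested arginine methyltransferases, 10381 for demethylases and 7557 for the rest. Among all tested genes, long ones were more often called higher and short ones lower, as given below. The part of length in the role counts was not tested. Each role count of 0 given for edgeR was also 0 with DESeq2 and with limma on FPKM. At an unadjusted p below 0.05 in edgeR, 1 H3K4 methyltransferase and 1 H3K36 methyltransferase would be lower, and the other counts of 0 would remain 0.

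The 250 bases before the RefSeq start (GRCh38.p14) are shown for the 3 members with the largest falls and for 3 of the 4 that were at least 2-fold higher, so that the sequence at the start of the most changed members can be set beside their values. These 6 and the motifs searched in them were chosen after the values were seen. The RefSeq start is not always that of the deposited table. The table starts PRMT1 at 49675786, so the PRMT1 window lies inside the gene as counted. The windows of PRMT5 and KMT2A reach a short way past the table's start. Each is written 5′ to 3′ on the gene's own strand, and capitals mark a match, on either strand, to GGGCGG (the GC box of SP1), CCAAT (the box of NF-Y) or CCGGAA (the ETS core). The palindromic element of NRF1 was searched as well.
PRMT1, chr19:49677021-49677270, plus strand: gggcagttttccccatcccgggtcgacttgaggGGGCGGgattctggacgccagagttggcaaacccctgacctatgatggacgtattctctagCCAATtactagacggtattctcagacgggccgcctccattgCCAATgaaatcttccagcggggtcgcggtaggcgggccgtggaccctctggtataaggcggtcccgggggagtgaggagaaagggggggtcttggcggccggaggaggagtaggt
PRMT5, chr14:22929377-22929626, minus strand: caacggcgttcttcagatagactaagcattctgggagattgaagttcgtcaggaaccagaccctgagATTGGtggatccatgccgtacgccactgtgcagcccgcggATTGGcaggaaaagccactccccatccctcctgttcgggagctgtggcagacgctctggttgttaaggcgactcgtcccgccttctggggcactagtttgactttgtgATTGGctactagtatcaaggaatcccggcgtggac
PRMT6, chr1:107056424-107056673, plus strand: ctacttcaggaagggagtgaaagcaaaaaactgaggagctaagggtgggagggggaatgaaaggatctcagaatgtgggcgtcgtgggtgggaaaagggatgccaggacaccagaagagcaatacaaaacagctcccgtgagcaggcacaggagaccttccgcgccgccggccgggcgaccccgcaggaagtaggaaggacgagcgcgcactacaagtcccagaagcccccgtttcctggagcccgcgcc
KDM6A, chrX:44872938-44873187, plus strand: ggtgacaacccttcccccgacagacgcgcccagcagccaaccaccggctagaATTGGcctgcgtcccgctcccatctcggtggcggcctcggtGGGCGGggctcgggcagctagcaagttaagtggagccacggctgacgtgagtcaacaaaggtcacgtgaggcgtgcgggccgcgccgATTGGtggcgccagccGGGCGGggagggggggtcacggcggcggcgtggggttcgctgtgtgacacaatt
KDM7A, chr7:140176984-140177233, minus strand: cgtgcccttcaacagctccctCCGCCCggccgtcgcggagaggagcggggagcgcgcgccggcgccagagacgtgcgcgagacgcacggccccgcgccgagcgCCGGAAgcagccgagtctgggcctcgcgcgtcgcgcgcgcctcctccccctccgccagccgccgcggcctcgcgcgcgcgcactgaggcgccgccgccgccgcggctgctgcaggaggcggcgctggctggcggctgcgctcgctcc
KMT2A, chr11:118436242-118436491, plus strand: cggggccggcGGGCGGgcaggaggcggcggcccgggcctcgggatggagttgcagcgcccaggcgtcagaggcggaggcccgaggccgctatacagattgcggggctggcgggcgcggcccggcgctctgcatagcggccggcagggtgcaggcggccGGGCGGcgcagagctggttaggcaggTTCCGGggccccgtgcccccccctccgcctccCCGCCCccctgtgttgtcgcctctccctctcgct

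The 3 arginine methyltransferases differ in this window. PRMT1 holds 1 GC box and 2 CCAAT boxes, PRMT5 holds 3 CCAAT boxes and no GC box, and PRMT6 holds none of the 4 motifs. KDM6A holds 2 GC boxes and 2 CCAAT boxes, KDM7A holds 1 GC box and 1 ETS core, and KMT2A holds 3 GC boxes and 1 ETS core. A RefSeq promoter was matched for 58 of the 62 members, while DOT1L, KDM4E, NSD3 and SETD1B had no entry. The 58 matched members had a median GC content of 65.6%, against 58.0% over all promoters of the RefSeq set. That set has 35116 entries and is not limited to the genes tested here, while each member was taken once. It is therefore not a matched background. GGGCGG was found in 43 of 58 (74.1%), against 42.6% of all 35116 promoters, CCAAT in 20 (34.5%, against 32.0%), CCGGAA in 12 (20.7%, against 14.5%) and the NRF1 element in 9 (15.5%, against 5.1%). GC boxes were held by 11 of the 13 members called higher, by 4 of the 7 called lower that were matched, and by 28 of the 36 not called. In the same order, CCAAT was held by 3, 3 and 13 members, CCGGAA by 3, 2 and 7, and the NRF1 element by 2, 1 and 6. In the longer window that adds 50 bases after the start, the E2F core GCGGGAA was found in 4 of 58 members (6.9%, against 6.55% of all promoters): NSD2, PRMT9, SUZ12 and KDM1B, none of which was called. TGATGNAA, the element of C/EBP and ATF factors, was in 0 of 58 against 3.62%. A match describes letters and is neither a bound site nor a cause.

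Arginine methyltransferases fell or did not pass the test. PRMT1, PRMT5, PRMT6 and PRMT7 had every knockdown library below every control library. The median log2 fold change of the 8 tested members was -0.54 (-0.41 once a trend on length and GC content was subtracted).

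PRMT1 (ENSG00000126457, chromosome 19, 49675786 to 49689029, plus strand) is the main enzyme of asymmetric arginine dimethylation. It had 127, 84.1 and 127 CPM in knockdown replicates 1, 2 and 3, against 211, 260 and 249 CPM in control replicates 1, 2 and 3. The groups were wide apart, with knockdown replicate 2 lowest and control replicate 1 the lowest of its group. The knockdown mean of 113 ± 25.0 CPM was 47.1% of the control mean of 240 ± 26.1 CPM (SD, n = 3 each), a log2 fold change of -1.09 (SE 0.17, edgeR adjusted p = 0.00162). PRMT5 (ENSG00000100462, chromosome 14, 22920525 to 22929408, minus strand), the main enzyme of symmetric dimethylation, which also acts on spliceosomal Sm proteins, had 35.3, 40.2 and 32.1 CPM in knockdown libraries against 59.5, 65.7 and 70.3 CPM in control libraries. Every knockdown value lay below every control value, at a log2 fold change of -0.86 (SE 0.12, edgeR adjusted p = 0.000772). In GENCODE 29, 27.1% of its exon bases lie under exons of the opposite-strand PRMT5-AS1, whose reads could be counted with it since the strand setting is not given.

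PRMT6 (ENSG00000198890, chromosome 1, 107056674 to 107067636, plus strand) methylates histone H3 at an arginine close to the H3K4 mark. It had 25.9, 19.7 and 26.0 CPM in knockdown libraries against 39.8, 47.6 and 52.3 CPM in control libraries, which did not overlap. Its log2 fold change was -0.96 (SE 0.15, edgeR adjusted p = 0.00154). PRMT7 (ENSG00000132600, chromosome 16, 68310951 to 68360852, plus strand), which makes monomethylarginine, had 21.7, 18.4 and 20.6 CPM in knockdown libraries against 27, 32.2 and 32.5 CPM in control libraries. These groups were also separate, at -0.59 (SE 0.12, edgeR adjusted p = 0.00445). All 4 calls held in each of the 14 alternative fits.

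The other arginine enzymes were not called. CARM1, the coactivator-associated enzyme, had 34.4, 56.9 and 33.6 CPM in knockdown libraries against 63.4, 55.1 and 57.3 CPM in control libraries. Knockdown replicate 2 alone reached the control range, and the log2 fold change was -0.50 (SE 0.20, edgeR adjusted p = 0.074). Without that library CARM1 was called lower, at -0.79 (edgeR adjusted p = 0.000874), and without both libraries that stood apart at -0.72. PRMT9, which like PRMT5 makes symmetric dimethylarginine, had 14.0, 10.8 and 10.9 CPM in knockdown libraries and 12.9, 10.9 and 9.56 CPM in control libraries, overlapping, at 0.10 (SE 0.17, edgeR adjusted p = 0.644), and it was called higher without both libraries that stood apart, at 0.29. PRMT3, which acts on a ribosomal protein, stood at 0.03 and PRMT2, a weakly active member, at -0.09. PRMT2 was called lower without both libraries that stood apart, at -0.15 (edgeR adjusted p = 0.0347).

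**Figure D2:**
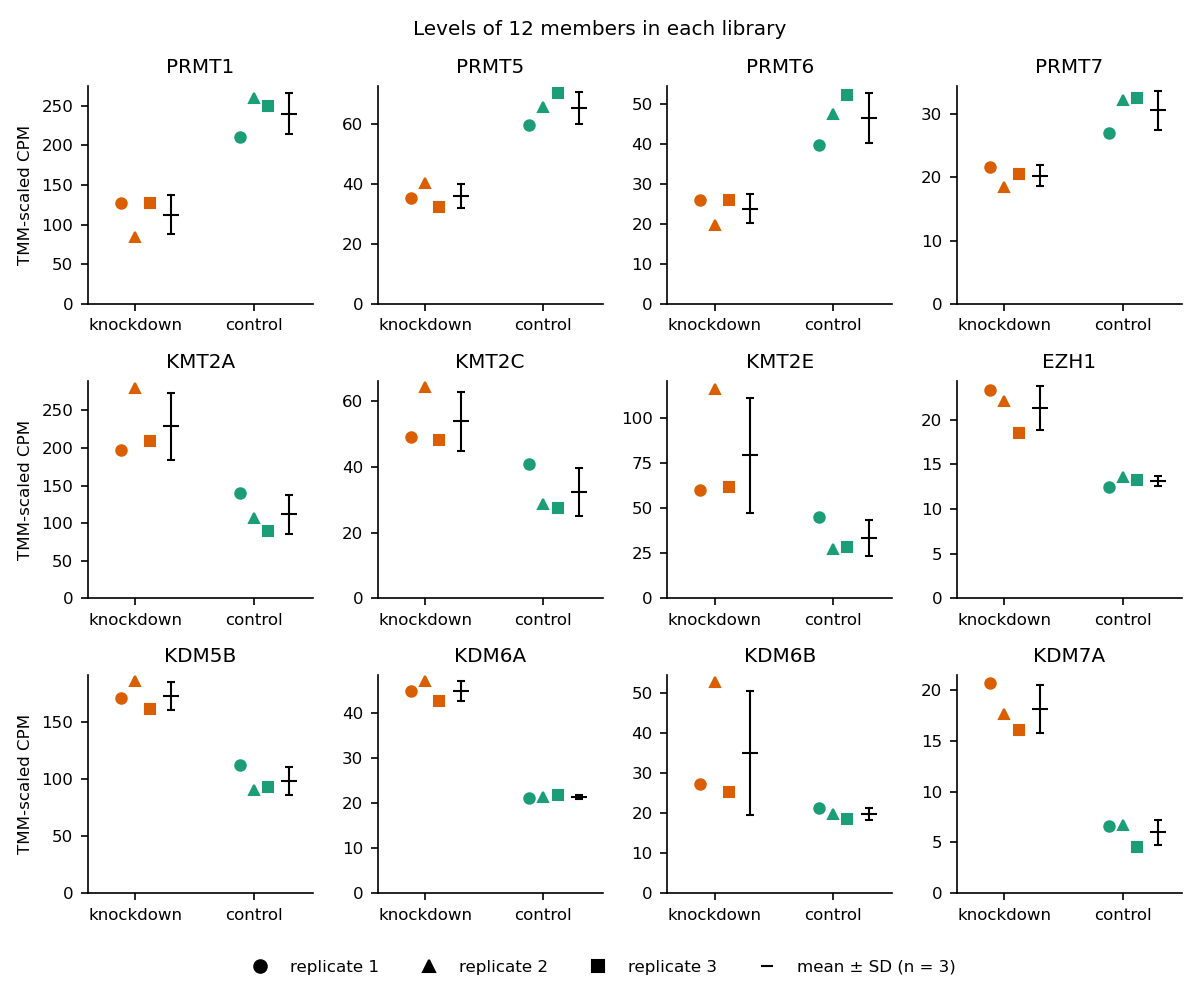
TMM-scaled CPM (vertical axis, from 0) of 12 called members in each knockdown and control library, with a symbol for each replicate and the mean with SD beside the points (n = 3 per group). The 4 PRMT genes are lower in every knockdown library and the other 8 genes are higher in every knockdown library, with knockdown replicate 2 at 116 CPM for KMT2E and 52.7 CPM for KDM6B.

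Of the 8 members of the H3K4 methyltransferase group, 3 were called higher and 0 lower (edgeR), with 5 not called and a median of -0.08. The 3 were KMT2A, KMT2C and KMT2E. KMT2B and KMT2D, the paralogs of KMT2A and KMT2C, and the SETD1 enzymes had negative values that did not pass the test.

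KMT2A (ENSG00000118058, chromosome 11, 118436456 to 118526832, plus strand), the gene rearranged in mixed-lineage leukaemia, had 197, 280 and 209 CPM in knockdown libraries against 140, 107 and 89.1 CPM in control libraries. The lowest knockdown library was above the highest control library. The log2 fold change was 1.03 (SE 0.19, edgeR adjusted p = 0.00347), 1.06 without both libraries that stood apart and 0.68 after the length and GC correction. A same-strand gene model in GENCODE 29 covers 17.9% of its exon bases. Its paralog KMT2B had 54.9, 77.8 and 63.6 CPM in knockdown libraries against 91.8, 84.0 and 77.5 CPM in control libraries. Only knockdown replicate 2 touched the control range, and the value of -0.37 did not pass (SE 0.14, edgeR adjusted p = 0.0573). Without knockdown replicate 2 it was called lower, at -0.52, and without both libraries that stood apart at -0.44.

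KMT2C (ENSG00000055609, chromosome 7, 152134922 to 152436644, minus strand) and KMT2D are the enhancer enzymes of the family. KMT2C had 49.2, 64.4 and 48.2 CPM in knockdown libraries against 40.9, 28.7 and 27.5 CPM in control libraries. The groups did not overlap, and control replicate 1 stood nearest to the knockdown libraries. The log2 fold change was 0.74 (SE 0.18, edgeR adjusted p = 0.012), 0.80 without both libraries that stood apart and 0.26 after the length and GC correction. The table gives KMT2C a length of 53322 bases. Without control replicate 2 the call was lost (edgeR adjusted p = 0.0516). Copies of part of KMT2C lie elsewhere in the genome, so its counts are uncertain to that extent. KMT2D had 99.2, 147 and 109 CPM in knockdown libraries against 151, 149 and 135 CPM in control libraries. The groups overlapped through knockdown replicate 2, at -0.29 (SE 0.15, edgeR adjusted p = 0.134), and KMT2D was called lower at -0.49 without that library and at -0.44 without both libraries that stood apart.

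KMT2E (ENSG00000005483, chromosome 7, 104940943 to 105115019, plus strand) has a SET domain without known methyltransferase activity and reads methylated H3K4. It had 60.0, 116 and 61.4 CPM in knockdown libraries against 44.9, 27.1 and 28.4 CPM in control libraries. Knockdown replicate 2 was far above its fellows, yet each knockdown library was above each control library. The log2 fold change was 1.24 (SE 0.30, edgeR adjusted p = 0.011), 0.85 without knockdown replicate 2 and 1.13 without both libraries that stood apart. SETD1A and SETD1B, which act at active promoters, stood at -0.37 and -0.04, and SETD7, which adds a single methyl group, at -0.13, none of them called. SETD1A was called lower without knockdown replicate 2, at -0.64 (edgeR adjusted p = 0.00182), and without both libraries that stood apart, at -0.57. SETD7 was called lower without both, at -0.15 (edgeR adjusted p = 0.00044).

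Of the 6 H3K9 methyltransferases, 1 was called lower and 0 higher. EHMT1 (ENSG00000181090, chromosome 9, 137618992 to 137870016, plus strand), which pairs with EHMT2 to make mono- and dimethylated H3K9, had 45.8, 53.6 and 49.4 CPM in knockdown libraries against 69.9, 72.0 and 72.4 CPM in control libraries. The groups were separate, at -0.53 (SE 0.09, edgeR adjusted p = 0.00241). EHMT2 had 33.5, 33.2 and 34.1 CPM in knockdown libraries and 33.5, 33.9 and 34.6 CPM in control libraries, at -0.02 (SE 0.08, edgeR adjusted p = 0.892). The partners of this heterodimer therefore had different values, one lower and the other within its spread. SUV39H1 and SUV39H2, which trimethylate H3K9 in constitutive heterochromatin, stood at 0.22 and -0.16. SETDB1, which acts at silenced repeats, and SETDB2 stood at 0.07 and 0.16, none of the 4 called. Without control replicate 1 SETDB2 was called higher at 0.41 (edgeR adjusted p = 0.0365), and without both libraries that stood apart at 0.36.

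Polycomb repressive complex 2 methylates H3K27 through EZH1 or EZH2, with EED and SUZ12 as core subunits. Of these 4, EZH1 was called higher and none lower. EZH1 (ENSG00000108799, chromosome 17, 42700275 to 42745049, minus strand), the weaker enzyme, typical of non-dividing cells, had 23.3, 22.1 and 18.5 CPM in knockdown libraries against 12.5, 13.6 and 13.2 CPM in control libraries. The groups were well apart, and the value hardly moved without both libraries that stood apart: 0.70 (SE 0.12, edgeR adjusted p = 0.00253) against 0.65. EZH2, the enzyme of dividing cells, had 71.0, 82.8 and 76.6 CPM in knockdown libraries and 83.8, 77.4 and 77.3 CPM in control libraries. These overlapped, at -0.05 (SE 0.09, edgeR adjusted p = 0.676). SUZ12 had 195, 226 and 193 CPM in knockdown libraries against 200, 139 and 132 CPM in control libraries. Control replicate 1 stood within the knockdown range, and the value of 0.38 did not pass (SE 0.17, edgeR adjusted p = 0.0863). Without control replicate 1 SUZ12 was called higher at 0.59, without both libraries that stood apart at 0.53, and after the length and GC correction its value was -0.07. A pseudogene copy, SUZ12P1, makes its count uncertain. EED stood at 0.28 with overlapping groups, as knockdown replicate 2 was the lowest of all 6 libraries. Without that library EED was called higher at 0.50 (edgeR adjusted p = 0.00827), and after the length and GC correction its value was -0.16.

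No H3K36 methyltransferase of the 4 was called. NSD1 and NSD2, which make dimethylated H3K36, are among the members with most counts. NSD1 had 219, 251 and 218 CPM in knockdown libraries and 233, 208 and 201 CPM in control libraries, at 0.10 (SE 0.10, edgeR adjusted p = 0.425). NSD2 had 255, 265 and 264 CPM in knockdown libraries and 264, 275 and 266 CPM in control libraries, at -0.04 (SE 0.08, edgeR adjusted p = 0.683). Both overlapped between groups. Without both libraries that stood apart NSD1 was called higher, at 0.10 (edgeR adjusted p = 0.021). SETD2, the trimethylating enzyme of H3K36, stood at 0.49 (edgeR adjusted p = 0.0882), with control replicate 1 at 134 CPM inside the knockdown range of 122 to 168 CPM. Without control replicate 1 it was called higher, at 0.75, and without both libraries that stood apart at 0.61. NSD3 stood at -0.34 (edgeR adjusted p = 0.0662) and was called lower without knockdown replicate 2, at -0.47, and without both libraries that stood apart at -0.36.

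The H3K79 and H4K20 enzymes divided. DOT1L (ENSG00000104885, chromosome 19, 2163933 to 2232578, plus strand), the H3K79 methyltransferase, which has no SET domain, had 27.2, 35.7 and 29.4 CPM in knockdown libraries against 51.7, 51.8 and 46.9 CPM in control libraries. Every knockdown library was lower, at -0.70 (SE 0.12, edgeR adjusted p = 0.00241). KMT5B (ENSG00000110066, chromosome 11, 68154863 to 68213852, minus strand), which makes di- and trimethylated H4K20, had 93.1, 93.5 and 86.1 CPM in knockdown libraries against 57.6, 47.4 and 53.3 CPM in control libraries. Every knockdown library was higher, at 0.78 (SE 0.10, edgeR adjusted p = 0.000629), and the value was 0.48 after the length and GC correction. Its paralog KMT5C had 8.50, 6.41 and 8.03 CPM in knockdown libraries against 9.69, 8.89 and 10.6 CPM in control libraries. These did not overlap either, but the value of -0.35 did not pass (SE 0.15, edgeR adjusted p = 0.0927). KMT5A, which makes the monomethyl mark during the cell cycle, stood at -0.02.

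Among the 8 other SET and SMYD members, 1 was called higher and 1 lower. SMYD3 (ENSG00000185420, chromosome 1, 245749342 to 246507312, minus strand), which methylates the kinase MAP3K2 in cancer cells, had 19.3, 12.6 and 19.1 CPM in knockdown libraries against 8.25, 10.2 and 12.4 CPM in control libraries. The groups touched, with knockdown replicate 2 at 12.6 and control replicate 3 at 12.4 CPM. The log2 fold change was 0.73 (SE 0.21, edgeR adjusted p = 0.0229), and the call was lost when knockdown replicate 1 or 3 or control replicate 1 or 2 was left out (edgeR adjusted p between 0.0643 and 0.0732). Its relative SMYD2, which also methylates proteins other than histones, had 45.7, 39.3 and 48.0 CPM in knockdown libraries and 39.0, 43.2 and 43.9 CPM in control libraries, overlapping, at 0.08 (SE 0.11, edgeR adjusted p = 0.568). SMYD5 (ENSG00000135632, chromosome 2, 73214222 to 73227221, plus strand) had 61.3, 49.2 and 55.9 CPM in knockdown libraries against 78.5, 94.4 and 93.2 CPM in control libraries. It was lower throughout, at -0.68 (SE 0.12, edgeR adjusted p = 0.00247), or -0.38 after the length and GC correction. SETD3, known as the actin histidine methyltransferase, and SETD4, SETD5, SETD6 and SETD9 were not called and lay between -0.21 and 0.20. Without both libraries that stood apart SETD5 was called higher, at 0.12, and SETD9 lower, at -0.24.

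The 2 flavin-dependent demethylases were not called. KDM1A, which removes mono- and dimethyl H3K4 in the CoREST complex, had 217, 243 and 211 CPM in knockdown libraries against 250, 256 and 260 CPM in control libraries. The groups did not overlap, although the value of -0.19 did not pass (SE 0.09, edgeR adjusted p = 0.0959). Without knockdown replicate 2 it was called lower, at -0.26. KDM1B had 70.2, 97.7 and 70.8 CPM in knockdown libraries and 80.9, 76.7 and 80.6 CPM in control libraries. Knockdown replicate 2 was the highest library and its 2 fellows were the lowest, which gave 0.00 (SE 0.14, edgeR adjusted p = 0.991) over all libraries and -0.15, with a call, without both libraries that stood apart.

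The JmjC demethylases of H3K4 are the KDM5 enzymes, of which 2 of 3 were called higher. KDM5B (ENSG00000117139, chromosome 1, 202724495 to 202808487, minus strand), first described in breast cancer, had 171, 186 and 161 CPM in knockdown libraries against 112, 89.9 and 92.5 CPM in control libraries. The groups were far apart, at 0.82 (SE 0.11, edgeR adjusted p = 0.000855), or 0.45 after the length and GC correction. KDM5C, X-linked, had 133, 123 and 136 CPM in knockdown libraries against 102, 105 and 101 CPM in control libraries. It too was higher throughout, at 0.35 (SE 0.08, edgeR adjusted p = 0.00896). KDM5A, which was found as a partner of the retinoblastoma protein, had 77.3, 78.3 and 74.4 CPM in knockdown libraries against 72.3, 60.8 and 63.0 CPM in control libraries. Here the groups did not overlap, but 0.23 did not pass (SE 0.10, edgeR adjusted p = 0.0764). KDM5A was called higher without control replicate 1, at 0.30 (edgeR adjusted p = 0.0165), and without both libraries that stood apart, at 0.30. After the length and GC correction its value was -0.02.

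Among the H3K9 demethylases, 3 of 7 tested were called higher and 0 lower. KDM7A (ENSG00000006459, chromosome 7, 140084746 to 140176983, minus strand), which removes dimethyl marks from H3K9 and H3K27, had 20.7, 17.7 and 16.1 CPM in knockdown libraries against 6.61, 6.75 and 4.56 CPM in control libraries. The lowest knockdown library was more than 2-fold above the highest control library. Its log2 fold change of 1.60 (SE 0.18, edgeR adjusted p = 0.00038), a 3.04-fold difference, was the highest of the 59 members, and it stood at 1.71 without both libraries that stood apart and at 1.11 after the length and GC correction.

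KDM3A, an enzyme induced by low oxygen, had 113, 118 and 114 CPM in knockdown libraries against 95.5, 77.7 and 73.8 CPM in control libraries. The groups did not overlap, at 0.48 (SE 0.11, edgeR adjusted p = 0.00907), though only 0.16 was left after the length and GC correction. Its paralog KDM3B had 141, 151 and 135 CPM in knockdown libraries and 149, 145 and 135 CPM in control libraries, at 0.00 (SE 0.09, edgeR adjusted p = 0.969). In the KDM4 family, which removes trimethyl marks from H3K9 and H3K36, KDM4A had 23.4, 20.5 and 24.2 CPM in knockdown libraries against 16.8, 17.7 and 18.7 CPM in control libraries. The groups were separate, at 0.35 (SE 0.11, edgeR adjusted p = 0.0287). The call of KDM4A was lost without knockdown replicate 1 or 3, or without any 1 of the control libraries (edgeR adjusted p between 0.0602 and 0.0964), and a same-strand gene model in GENCODE 29 covers 40.2% of its exon bases. KDM4B had 27.7, 25.7 and 27 CPM in knockdown libraries and 26.0, 27.9 and 27.2 CPM in control libraries, overlapping, at -0.01 (SE 0.09, edgeR adjusted p = 0.929). KDM4C had 13.8, 13.5 and 13.3 CPM in knockdown libraries and 14.1, 12.5 and 12.2 CPM in control libraries, also overlapping, at 0.06 (SE 0.11, edgeR adjusted p = 0.656). KDM4D, at 3.06 to 3.85 CPM in knockdown libraries and 2.90 to 4.61 CPM in control libraries, was not called.

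Both H3K27 demethylases were called higher. KDM6A (ENSG00000147050, chromosome X, 44873188 to 45112779, plus strand), a tumour suppressor that also works in the KMT2C and KMT2D complexes, had 44.8, 47.1 and 42.7 CPM in knockdown libraries against 21.0, 21.2 and 21.8 CPM in control libraries. The spread within either group was small beside the gap between them. The knockdown mean was 44.9 ± 2.21 CPM and the control mean 21.4 ± 0.417 CPM (SD, n = 3 each), a log2 fold change of 1.07 (SE 0.09, edgeR adjusted p = 0.000108), which was 1.03 without both libraries that stood apart and 0.59 after the length and GC correction. KDM6B (ENSG00000132510, chromosome 17, 7834217 to 7854796, plus strand), the inducible enzyme of inflammation and differentiation, had 27.1, 52.7 and 25.1 CPM in knockdown libraries against 21.3, 19.6 and 18.4 CPM in control libraries. Knockdown replicate 2 was far above its fellows, and the other 2 knockdown libraries lay a little above the controls. Its log2 fold change of 0.82 (SE 0.28, edgeR adjusted p = 0.0384) was 0.39 without knockdown replicate 2, still called (edgeR adjusted p = 0.0186), and 0.46 without both libraries that stood apart, and the call was lost without control replicate 1, 2 or 3 (edgeR adjusted p = 0.0688, 0.101 and 0.107).

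The H3K36 demethylases were the only demethylase group with a member called lower. KDM2B (ENSG00000089094, chromosome 12, 121429096 to 121581023, minus strand), which binds CpG islands, had 22.0, 21.3 and 21.1 CPM in knockdown libraries against 29.8, 27.1 and 29.9 CPM in control libraries. It was lower throughout, at -0.43 (SE 0.09, edgeR adjusted p = 0.00687). KDM2A had 182, 215 and 184 CPM in knockdown libraries and 208, 210 and 205 CPM in control libraries, overlapping through knockdown replicate 2, at -0.10 (SE 0.09, edgeR adjusted p = 0.381), and it was called lower without that library, at -0.19. KDM8, a JmjC protein whose demethylase activity is debated, was not called at -0.51, on 1.89 to 3.06 CPM in knockdown libraries and 2.94 to 3.90 CPM in control libraries.

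Levels can be compared between genes only per length, in the deposited FPKM. In knockdown libraries SUZ12 held rank 1 among the members with 32.1 ± 1.43 FPKM and PRMT1 rank 2 with 24.4 ± 6.27 FPKM, while in control libraries PRMT1 held rank 1 with 48.6 ± 5.10 FPKM and SUZ12 rank 3 with 23.3 ± 5.72 FPKM (SD, n = 3 each). On the deposited lengths, PRMT1 was clear of the next member in control libraries by more than the spread. SMYD5 (25.6 ± 2.44 FPKM) and SUZ12 were within their spreads of each other there. PRMT6 moved furthest in the order, to rank 33 in knockdown libraries (5.69 ± 1.09 FPKM) against rank 16 in control libraries (10.4 ± 1.35 FPKM). KMT2A moved furthest the other way, to rank 23 in knockdown libraries (7.44 ± 1.11 FPKM) against rank 38 in control libraries (3.46 ± 0.814 FPKM). The 3 lowest tested members in control libraries, KDM6A (0.748 FPKM), KDM7A (0.619 FPKM) and KMT2C (0.590 FPKM), were all called higher and had 1.66, 1.99 and 1.04 FPKM in knockdown libraries. All these ranks rest on the deposited lengths, which for some members far exceed the exon bases of GENCODE 29. KMT2C has 53322 against 20114 bases, KDM6A 27742 against 7139 and KDM1A 18325 against 5440. EZH2 has 10774 against 4522 bases and SETD5 24804 against 10808. An order on exon bases was not computed and could differ, at the top as well. The length correction of these members rests on the deposited lengths too.

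The balance within paralog pairs was compared. Over 22 pairs the log2 ratio of the 2 genes was computed in each library from CPM plus 0.5. No pair had 1 gene called higher and the other called lower. In 13 pairs the ratios of the knockdown libraries did not overlap those of the control libraries, and in 9 they did. Single genes did not overlap in 61.4% of all tested genes, so this count is not read as particular to the pairs. The largest shift was that of KMT2B over KMT2A, with a mean log2 ratio of -1.79 ± 0.08 in knockdown libraries and -0.38 ± 0.20 in control libraries (SD, n = 3 each), a difference of -1.41. KMT5C over KMT5B differed by -1.12, KMT2D over KMT2C by -1.05 and EZH2 over EZH1 by -0.72, and PRMT9 over PRMT7 by 0.67. KDM5B over KDM5A differed by 0.59, with the 3 knockdown libraries close together, and EHMT2 over EHMT1 by 0.51. Each of the 13 reached the smallest p that 3 libraries against 3 allow, 0.1 in the exact 2-sided permutation test (0.169 adjusted over the 22 pairs), so none could pass a threshold of 0.05. KDM6B over KDM6A overlapped (difference -0.33, exact 2-sided p = 0.4), with knockdown replicates 1 and 3 below every control library and knockdown replicate 2 above them all.

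**Figure D3:**
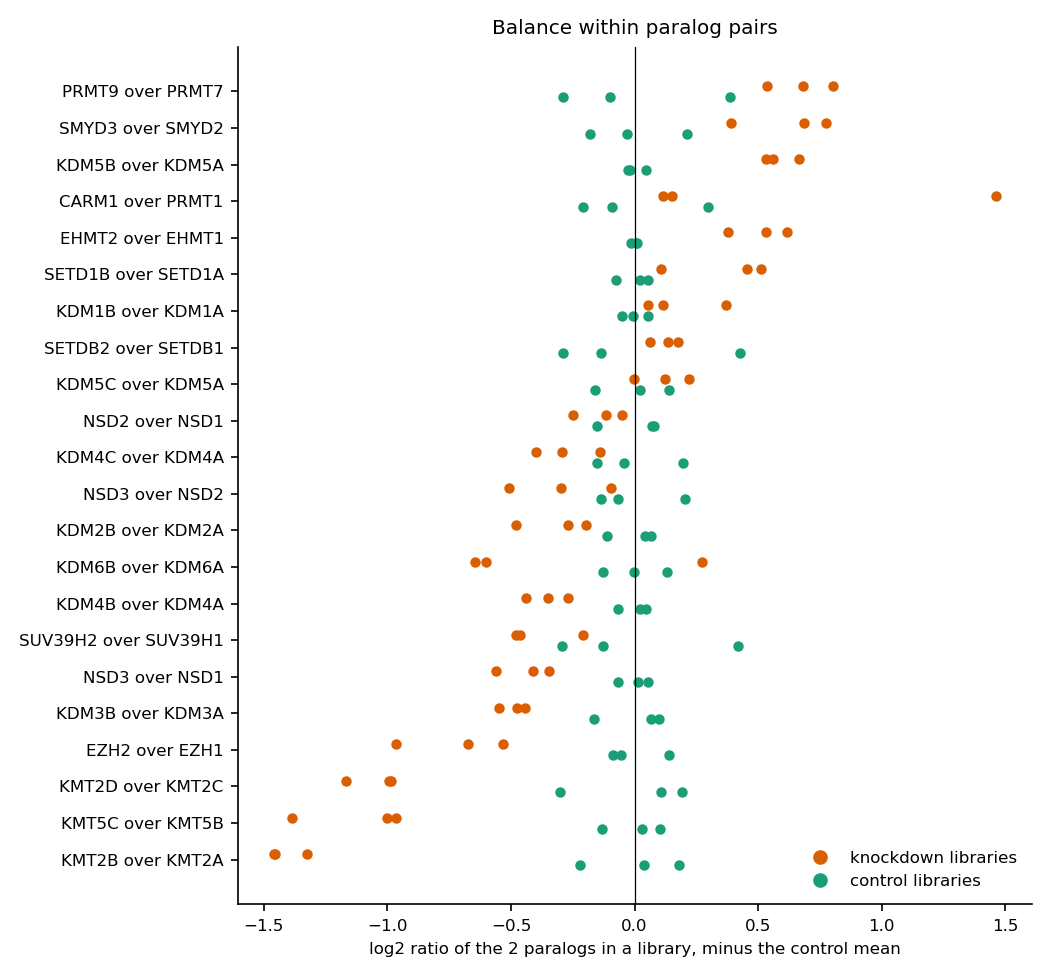
Log2 ratio of 2 paralogs in each library, shown relative to the control mean (horizontal axis), for 22 pairs, with the 3 knockdown libraries above the 3 control libraries in each row. KMT2B over KMT2A, KMT5C over KMT5B and KMT2D over KMT2C lie farthest to the left, with differences of -1.41, -1.12 and -1.05.

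Some members had values close to those of the genes beside them on the chromosome. For each member the median log2 fold change of the 20 nearest tested genes on each side was taken, as a description. Among the 21 called members, 16 had a neighbour median of the same sign and 19 were farther from 0 than that median. Neither count was made over other called genes. A called gene will mostly lie farther from 0 than a median of many genes, so nothing is read from the counts. Nearer to 0 than their neighbour medians were KDM5C and EHMT1. KDM5C stood at 0.35 where its neighbours had a median of 0.70 and 90.0% of them were positive, and EHMT1 at -0.53 where its neighbours had -0.60. KDM6A stood at 1.07 beside neighbours at 0.55, KDM5B at 0.82 beside 0.56, and PRMT1 at -1.09 beside -0.47. PRMT6 was lower at -0.96 among neighbours with a median of 0.21, and KMT2A, KMT5B and EZH1 were higher among neighbours at 0.06, 0.04 and -0.13. The part of neighbouring genes in the members' values was not tested.

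**Figure D4:**
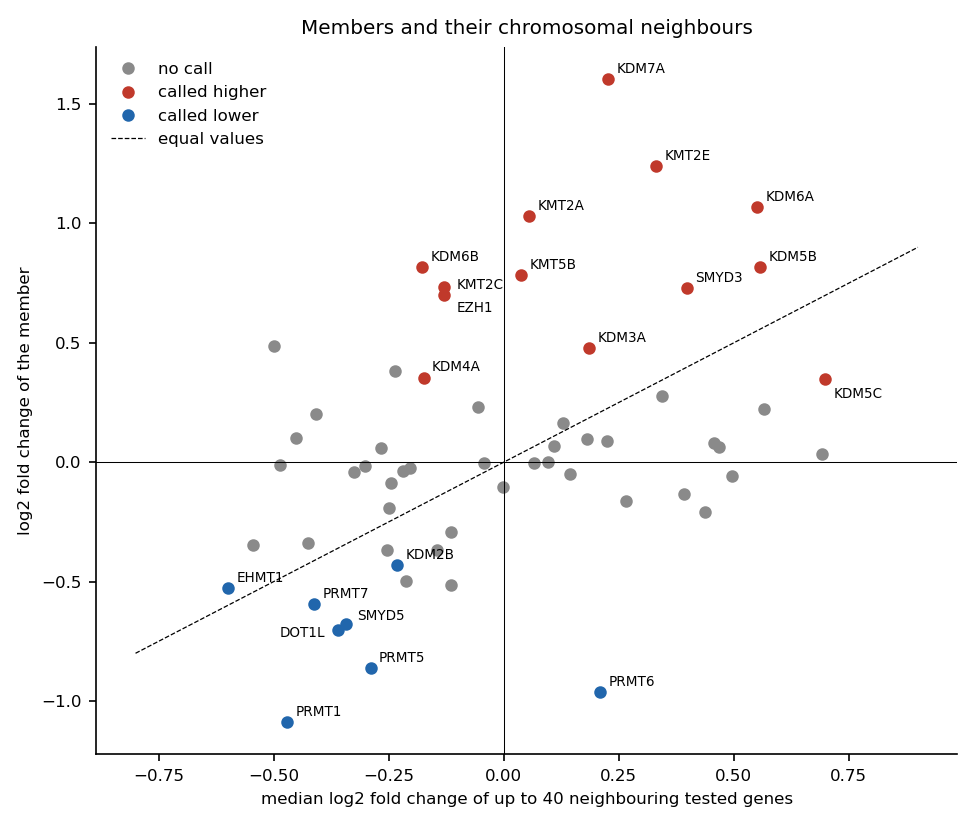
Log2 fold change of each tested member (vertical axis) against the median log2 fold change of up to 40 neighbouring tested genes (horizontal axis), with colours for the edgeR call and a dashed line at equal values. KDM5C (0.35) and EHMT1 (-0.53) are nearer to 0 than their neighbours' medians (0.70 and -0.60), and PRMT6 (-0.96) lies opposite to its neighbours (0.21).

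Gene length also moved with the log2 fold change. Among all tested genes 15.3% of the shortest quartile were called higher and 29.4% lower, while 38.2% of the longest quartile were called higher and 19.1% lower. The members are long, with a median of 7739 bases in the table against 5524 for all tested genes, and 28 of the 59 fell in the longest quartile. There 9 members were called higher and 4 lower, and in the shortest quartile, which held 5 members, 0 were called higher and 2 lower. A smooth trend on length and GC content was subtracted from every value. No called member changed sign with it, and 26 members had a positive value with it, against 29 without it. Among called members KDM6B (1.14 against 0.82), KDM5C (0.47 against 0.35) and KDM4A (0.425 against 0.35) moved away from 0 with it. All other called members moved toward 0, DOT1L (-0.46 against -0.70) among them. CARM1, not called, moved to -0.15 from -0.50. The part of length in the members' values was not tested further.

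Within a group, the members differed mainly in the libraries that stood apart. Knockdown replicate 2 was the outermost of its group in 53 of 59 members, and control replicate 1 in 50 of 59. Outermost means highest or lowest, which a library that does not stand apart would also be in most genes. The median absolute distance from the mean of the other 2 libraries was 0.21 for knockdown replicate 2 and 0.19 for control replicate 1 on the log2 scale, where the other 2 libraries of each group lay 0.06 and 0.07 apart. In 44 members both libraries deviated in the same direction. None of these counts was made over all tested genes, over which these libraries also stood apart. The counts are therefore not read as particular to the members. Across the 59 members the deviations had a Pearson r of 0.588, given as a description, since the members of a library share its preparation and depth. KMT2E, KMT2A, KMT2C and SETD2 were high in both libraries, while SMYD3, PRMT1 and EED were low in both. Without both libraries all 21 calls kept their direction, and 21 members were called higher and 19 lower, where 36.9% and 36.7% of 12415 tested genes were. The gains included SUZ12, SETD2, EED and KDM5A upward and CARM1, KMT2B, KMT2D, SETD1A and KDM1A downward. That fit rests on 2 libraries per group, with a chi-square per gene of 2.46 between the knockdown libraries and 2.06 between the control libraries. Counting noise alone would give about 1. Its adjusted p-values rest on this small spread.

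**Figure D5:**
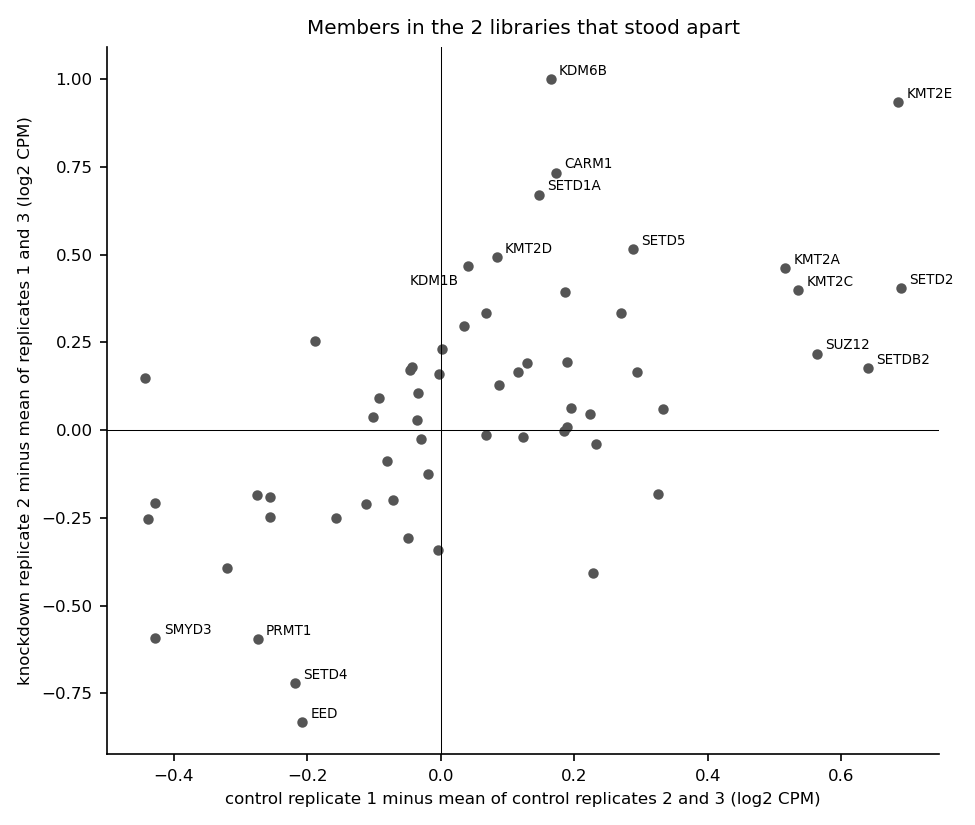
Deviation of knockdown replicate 2 from the mean of knockdown replicates 1 and 3 (vertical axis) against that of control replicate 1 from the mean of control replicates 2 and 3 (horizontal axis), both in log2 CPM, for 59 members. In 44 members both deviations have the same sign, with KMT2E high in both and SMYD3, PRMT1 and EED low in both.

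Genes that work with the members were counted in lists by complex, to be read against the 26.7% of all tested genes called higher and the 25.1% called lower. Of 15 subunits of the KMT2 and SETD1 complexes 5 were called higher and 5 lower, with a median of -0.19. WDR5, the core scaffold, had 62.7, 60.1 and 58.7 CPM in knockdown libraries against 91.9, 106 and 112 CPM in control libraries (-0.77, edgeR adjusted p = 0.000656), and WDR82, which belongs to the SETD1 complexes, stood at -0.77 (edgeR adjusted p = 0.00147). RBBP5, another core subunit, was called higher at 0.44, as were BOD1L1 (1.69) and PSIP1 (1.21). Of 9 tested Polycomb accessory subunits 3 were higher and 1 lower, with PHF19, which reads methylated H3K36, at -0.78 and LCOR at 0.39. Of 13 H3K9 partners and readers 6 were higher and 3 lower, with UHRF1 at -1.18 (edgeR adjusted p = 3.44e-05) and CDYL at -0.80 among the lower ones. PRMT5 works with WDR77 in one complex, and WDR77 was lower as PRMT5 was, with 27.6, 22.8 and 28.9 CPM in knockdown libraries against 40.1, 48.2 and 50 CPM in control libraries (-0.80, edgeR adjusted p = 0.0019). COPRS, which directs PRMT5 to histones, was lower at -0.79, while RIOK1 and CLNS1A were not called, so that 2 of 4 PRMT5 partners were called lower and 0 higher. Of 12 tested genes of the KDM1A and CoREST complex 5 were higher, RCOR3 (0.79) and PHF21A (1.38) among them, and 1 lower. Of 13 tested enzymes with related activity whose names do not follow the rule, 4 were higher and 5 lower, with HR at -1.97 and PHF2 at -0.73. Both are JmjC proteins linked to H3K9, as are JMJD1C (1.59) and PHF8 (0.71), which were called higher.

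The supply of S-adenosylmethionine touches every methyltransferase. Of 11 tested genes of its supply and use 4 were called higher and 2 lower, a share close to the 51.8% of all tested genes called. MAT2A, which makes S-adenosylmethionine in most tissues, had 732, 748 and 738 CPM in knockdown libraries against 463, 467 and 436 CPM in control libraries. The libraries of each group lay close together and far from the other group, at 0.70 (SE 0.08, edgeR adjusted p = 0.000331). NNMT, which spends methyl groups on nicotinamide, had 64, 47 and 71 counts in knockdown libraries and 0, 1 and 5 counts in control libraries. AHCY, which clears the product S-adenosylhomocysteine, was lower at -0.45 (edgeR adjusted p = 0.0137). MTAP, the methionine salvage enzyme whose loss raises an inhibitor of PRMT5, had 2, 3 and 3 counts in knockdown libraries and 8, 6 and 6 counts in control libraries and was not tested, at under 1 CPM in all 6 libraries.

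Markers were read as a check of the cells and beside the counts above. KRT8, the keratin of simple epithelia, averaged 1410 CPM in knockdown libraries and 947 CPM in control libraries, and the 4 acinar markers had no counts in any library. Of the 7 ductal markers 3 were called higher and 2, EPCAM (-1.38) and SOX9 (-0.39), lower. Their sum, mostly KRT8 and KRT18, was 1970.0 to 2404.6 CPM in knockdown libraries and 1427.0 to 1770.1 CPM in control libraries, with KRT19 at 69.8 CPM in knockdown and 0.152 CPM in control libraries. Of the 3 mesenchymal markers CDH2 (0.60) and ZEB1 (0.96) were called higher and VIM (-0.82) lower, and their sum, mostly VIM, was 1416.9 to 1498.9 CPM in knockdown libraries and 2085.5 to 2666.6 CPM in control libraries. Immune markers summed to 1.95 to 3.11 CPM in knockdown libraries and 0.802 to 1.71 CPM in control libraries, with LYZ at 0. Endothelial markers summed to 5.86 to 7.25 CPM in knockdown libraries and 0.441 to 0.668 CPM in control libraries, all but KDR near 0. Fibroblast markers summed to 47.8 to 51.3 CPM in knockdown libraries and 80.7 to 94.9 CPM in control libraries, mostly COL1A1 (called lower, -0.92), while COL3A1 was called higher (1.10) and DCN was at 0. Endocrine markers did not pass the filter and summed to at most 0.0994 CPM in knockdown libraries and 0.38 CPM in control libraries. Embryonic kidney markers, read because packaging cells can carry over, summed to 40.8 to 52.5 CPM in knockdown libraries and 37.3 to 40.2 CPM in control libraries. Their part in the members' values was not tested.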

How the data were processed

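RNA-seq of 6 PANC-1 libraries was analysed, 3 per group by title. TRIzol RNA and the NEBNext Ultra II RNA kit were used, per the labels' protocols. No aligner, counter, build, annotation or strand setting is named in the labels or headers. For 20036 genes the authors deposited raw read counts, per the file headers, and FPKM values, which the table's counts, lengths and totals give back within a relative 2.3e-07. Coordinates are the table's own. Of its genes found in GENCODE 29, 79.0% share a start or end with GRCh38.

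Counts were tested with edgeR 4.0.16 (R 4.3.3): filterByExpr at a minimum count of 10, TMM factors, quasi-likelihood fit without covariates, Benjamini-Hochberg adjustment over 12292 genes, threshold 0.05. Standard errors come from the fold change and its F value. Total counts of 15405884 to 19075734 per library set the precision. The test was tried on simulated data. A smooth trend on log length and GC content (mgcv 1.9.3, 12274 genes) gave the corrected values, with no test. Paralog ratios were tested with an exact permutation test (scipy 1.17.1), planned for pairs with opposite calls. No pair had them, so after the values were seen it was run on all 22.

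Alternatives were relative log expression factors, upper-quartile factors, library size alone, no filter, DESeq2 1.42.0, limma 3.58.1 on log2(FPKM + 1), the replicate number as a block, each library left out, and both libraries that stood apart left out. The members, lists, pairs and alternatives were chosen with earlier results of these data known. Values in every library are given, by rule, for up to 4 called members per role, or the 2 of highest mean where fewer than 2 were called, and for pairs with a called gene. Of the partner lists up to 2 called genes by adjusted p are named, with SHMT2, MAT2A and MTAP in any case. AHCY, RIOK1, CLNS1A, RBBP5, BOD1L1, PSIP1, JMJD1C and PHF8 were named after their values were seen.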

Additional observations from a re-analysis of the deposited data

How the results depend on the processing

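The call of 17 of the 21 called members held in all 14 alternatives with a test. The exceptions were KDM6B, KMT2C, KDM4A and SMYD3, each lost when single libraries were left out. Leaving out each library in turn gave 4748 to 6784 called genes of all tested, 9 to 14 members higher and 8 to 15 lower, and moved KDM1B between -0.18 and 0.087. The 15 lower came without knockdown replicate 2, where 27.8% of all 12442 tested genes were called lower and 26.1% higher. Without knockdown replicate 2 and control replicate 1 together, 9135 genes were called, with 21 members higher and 19 lower, and KDM1B turned to -0.15 (edgeR adjusted p = 0.0116). In that fit 36.9% of all 12415 tested genes were called higher and 36.7% lower. Deviations of samples that share a replicate number had correlations of -0.30, -0.28 and 0.30 for replicates 1, 2 and 3. The libraries that stood apart carry different numbers and weigh on these values. The check therefore cannot tell whether the numbers mark a pairing. With the replicate block 5444 genes were called, with 12 members higher and 8 lower, and KDM4A lost its call (edgeR adjusted p = 0.0695). Upper-quartile factors gave 13 and 10, library size alone 15 and 8, limma 15 and 8, and DESeq2, relative log expression factors and no filter 13 and 8 each. Shares per direction over all genes were not taken for the other alternatives. None of these member counts is read as particular to the members. Library size alone moved the median of all genes to 0.09. The length and GC trend moved 40 of 60 values (59 members and SHMT2) by more than the spread between replicates, and that of SHMT2 by less. The tested members with the lowest mean CPM in control libraries were KDM8, KDM4D, KDM7A and KMT5C, of which KDM7A was called.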
